A study of Mus musculus with 4 samples.

Results

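Immune checkpoint ligands and receptors are surface proteins that set how strongly T cells and phagocytes respond, and 10 genes of this kind were examined out of 20555 in the table. They were picked by gene symbol, with earlier results of these data known, and all 10 were found. The ligands were Cd274 (PD-L1), Pdcd1lg2 (PD-L2), Cd80, Cd86 and Cd47, and the receptors were Pdcd1 (PD-1), Ctla4, Lag3, Havcr2 (TIM-3) and Tigit. RNA came from bulk mouse mammary tumours in 2 groups of 2 libraries, MYC-PyMT and Control-PyMT. Every tumour carried PyMT, the polyoma middle T antigen, an oncoprotein used to make mammary tumours in mice. The MYC-PyMT genotype adds S100a8-cre, a Cre recombinase driven by a gene that is strong in neutrophils, and Rosa26-LSL-MYC, in which Cre removes a stop cassette in front of MYC. The Control-PyMT genotype is PyMT only, so the controls are not labelled with either allele. The labels give no age, sex or strain, no promoter for PyMT, no species for the MYC allele and no word on pooling or on separate mice, so that the spread within a group may be technical and p-values measure that spread.

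PD-1, CTLA-4, LAG-3, TIM-3 and TIGIT are inhibitory receptors best known from activated and exhausted T cells, and NK cells and some myeloid cells carry several of them. Tumour cells, macrophages and dendritic cells display the ligands, and PD-L1 is induced by interferon gamma through JAK kinases and IRF1. CD80 and CD86 on antigen-presenting cells bind CD28, which activates T cells, and CTLA-4, which restrains them. CD47, found on nearly all cells, binds SIRPα on macrophages and inhibits phagocytosis.

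Of the 10 genes, 8 had a promoter sequence in RefSeq (GRCm38.p6), and Lag3 and Cd86 had no entry that was used. The 250 bases before the RefSeq start of Cd274 (chr19:29367188-29367437, plus strand) and Cd47 (chr16:49855404-49855653, plus strand) are shown because Cd274 is the ligand with the best known interferon control and Cd47 had the highest level of the 10 genes. Capitals mark CpG dinucleotides. The Cd47 window lies within the span of the gene in GENCODE (49800533 to 49915010), whose start differs from the RefSeq start used here. The windows of Ctla4 and Cd80 likewise lie within the GENCODE spans of these genes.
Cd274: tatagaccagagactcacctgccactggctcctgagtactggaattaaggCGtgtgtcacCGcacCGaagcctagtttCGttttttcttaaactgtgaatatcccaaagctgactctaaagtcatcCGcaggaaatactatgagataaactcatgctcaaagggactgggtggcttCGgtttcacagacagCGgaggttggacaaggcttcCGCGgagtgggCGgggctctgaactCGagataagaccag
Cd47: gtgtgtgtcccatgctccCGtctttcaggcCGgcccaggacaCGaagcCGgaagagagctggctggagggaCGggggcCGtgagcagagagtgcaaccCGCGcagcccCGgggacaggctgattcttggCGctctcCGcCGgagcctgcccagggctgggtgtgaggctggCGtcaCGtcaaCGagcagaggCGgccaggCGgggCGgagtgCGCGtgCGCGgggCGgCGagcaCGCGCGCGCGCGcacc
The Cd274 window held 11 CpG dinucleotides and the Cd47 window 30, against a median of 6 over 32851 promoter windows of that length. The windows of the other 6 genes held 2 to 7. Both strands were searched for the interferon gamma activated site (GAS, TTCNNNGAA), the interferon-stimulated response element (ISRE, taken as GAAA, any 2 bases and GAAA) and the E-box that MYC with MAX can bind (CACGTG). These letters were in none of the windows of the 8 genes, so no matches overlapped, and were in 7.02%, 2.98% and 6.02% of all windows for the GAS, the ISRE and the E-box.

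Cd86, Cd274, Pdcd1 and Lag3 were lower in MYC-PyMT tumours, while Cd47, Havcr2 and Cd80 did not pass the test. Values are scaled counts, the authors' read counts divided by a size factor for each library, and groups are given as mean ± SD (n = 2 each). The test was limma on log2(scaled counts + 1), MYC-PyMT over Control-PyMT, with Benjamini-Hochberg adjustment over 16725 genes that reached 10 in 2 or more libraries, and a threshold of 0.05. Of the 10 genes 7 reached that level, Pdcd1 through Control-PyMT alone, and Pdcd1lg2, Ctla4 and Tigit did not. The direction of Pdcd1, which is counted below, was thus partly set by the filter. The test called 4 of the 7 lower and 0 higher, and among all tested genes it called 47.9%, with 24.6% lower and 23.3% higher. Limma at an unadjusted p under 0.05, edgeR and DESeq2 likewise called 0 of the 7 higher. Groups did not overlap for 9 of the 10 genes, 8 of them lower and 1 higher in MYC-PyMT. That held for 72.1% of all genes in the table, 37.5% lower and 34.6% higher, and for 75.7% of tested genes, with 38.7% lower.

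**Figure D1:**
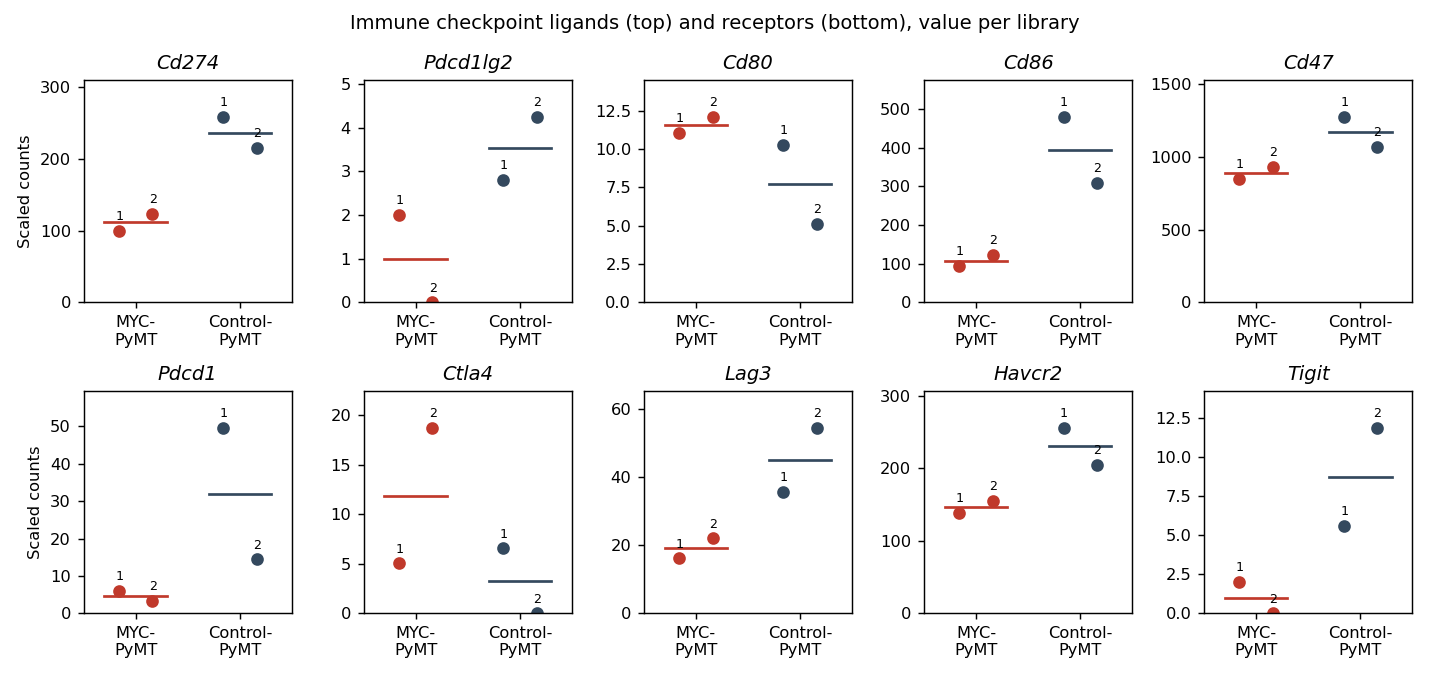
Scaled counts (y axis, from 0, each panel on its own scale) of the 5 ligands and 5 receptors in MYC-PyMT and, to its right, Control-PyMT libraries. Points are libraries and bars are group means, and among the 10 genes Ctla4 is the one whose groups overlap.

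Cd86, a costimulatory ligand of antigen-presenting cells (chromosome 16, 36603869 to 36666081, minus strand, GRCm38), had 94.6 and 122 scaled counts in MYC-PyMT and 479 and 308 in Control-PyMT, replicates 1 and 2 of each group in order. Both MYC-PyMT libraries lay below both Control-PyMT libraries. Cd86 averaged 108 ± 19.4 in MYC-PyMT and 394 ± 121 in Control-PyMT, a log2 change of -1.83 (SE 0.31, limma adjusted p = 0.00101). It passed in every alternative run, including each left-out library, edgeR and DESeq2 (adjusted p 1.32e-06 to 0.0384 over 15 alternatives). Its relative Cd80 (chromosome 16, 38455561 to 38496335), which binds the same receptors, had 11.1 and 12.1 scaled counts in MYC-PyMT and 10.3 and 5.10 in Control-PyMT. These come from 11 and 11 reads in MYC-PyMT and 11 and 6 in Control-PyMT, so the level is low in both groups. The log2 change of Cd80 was 0.60 (SE 0.53, limma adjusted p = 0.381), with a 95% interval of -0.60 to 1.79. The difference between Cd86 and Cd80 was not tested.

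Cd274, the main ligand of PD-1 (chromosome 19, 29367455 to 29388095, plus strand), had 99.6 and 123 scaled counts in MYC-PyMT and 258 and 215 in Control-PyMT. The groups were apart, at 111 ± 16.6 in MYC-PyMT and 237 ± 30.6 in Control-PyMT, and Cd274 had a log2 change of -1.08 (SE 0.28, limma adjusted p = 0.0112). The call was lost without Control-PyMT replicate 1 (-0.95, adjusted p = 0.0904), without Control-PyMT replicate 2 (-1.21, adjusted p = 0.0577) and without MYC-PyMT replicate 1 (-0.93, adjusted p = 0.0674), in a range of 0.00637 to 0.0904 over 15 alternatives. An antisense transcript, AC119228.1, overlaps 511 exonic bases of Cd274 and has no value here, and with the strand setting unknown its reads cannot be told apart from those of Cd274. Pdcd1lg2, which encodes the other PD-1 ligand, lies 22.8 kb downstream of Cd274 (chromosome 19, 29410919 to 29471161) with 0 coding genes between them. It had 2 and 0 reads in MYC-PyMT and 3 and 5 in Control-PyMT. Corrected for depth this is 3.39-fold fewer reads in MYC-PyMT, with an exact 95% counting interval of 0.676 to 32.8, so a difference was not detectable at this depth.

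Cd47, which signals to phagocytes not to engulf the cell (chromosome 16, 49800533 to 49915010), had 845 and 929.7 scaled counts in MYC-PyMT and 1271 and 1068 in Control-PyMT. Both MYC-PyMT libraries were below both Control-PyMT libraries, at 888 ± 59.7 in MYC-PyMT and 1169 ± 144 in Control-PyMT, but the log2 change of -0.39 did not pass (SE 0.20, limma adjusted p = 0.134, 95% interval -0.84 to 0.057). Cd47 had the most reads of the 10 genes, 840 to 1359 a library. Mouse Myc, at 3215 and 2815 in MYC-PyMT and 1832 and 2819.9 in Control-PyMT, did not pass either (log2 change 0.40, adjusted p = 0.172) but did without Control-PyMT replicate 2 (0.72, adjusted p = 0.0452), and these reads need not include those of the transgene.

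Pdcd1, which encodes PD-1 (chromosome 1, 94038305 to 94052553, minus strand), had 6.04 and 3.30 scaled counts in MYC-PyMT and 49.6 and 14.4 in Control-PyMT. The MYC-PyMT libraries were both low, and the Control-PyMT libraries differed widely, with 6 and 3 reads in MYC-PyMT and 53 and 17 in Control-PyMT. Pdcd1 fell to a mean of 4.67 ± 1.94 in MYC-PyMT, against 32.0 ± 24.8 in Control-PyMT (log2 change -2.35, SE 0.63, limma adjusted p = 0.0126). It reached the level filter through Control-PyMT alone, so that its direction was partly set by the filter. The call was lost without Control-PyMT replicate 1 (-1.49, adjusted p = 0.0983), in a range of 0.000225 to 0.0983 over 14 alternatives.

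Lag3, a receptor for MHC class II and FGL1 (chromosome 6, 124904361 to 124911705, minus strand), had 16.1 and 22.0 scaled counts in MYC-PyMT and 35.5 and 54.4 in Control-PyMT. The groups did not overlap, at 19.0 ± 4.16 in MYC-PyMT and 44.9 ± 13.3 in Control-PyMT, and Lag3 had a log2 change of -1.18 (SE 0.42, limma adjusted p = 0.0428). The call was lost without MYC-PyMT replicate 1 (-0.97, adjusted p = 0.162), Control-PyMT replicate 1 (-1.48, adjusted p = 0.0668) or Control-PyMT replicate 2 (-0.88, adjusted p = 0.186), with no level filter (adjusted p = 0.0523) and in DESeq2 (-1.23, adjusted p = 0.164), in a range of 0.0279 to 0.186 over 14 alternatives. Lag3 lies 16.1 kb from Cd4 on the same strand with 0 coding genes between them. Cd4, the T helper coreceptor, which some macrophages and dendritic cells also carry, moved the other way, at 129.8 and 141 in MYC-PyMT and 45.8 and 39.9 in Control-PyMT (log2 change 1.64, limma adjusted p = 0.00245).

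Havcr2 encodes TIM-3, which macrophages and dendritic cells express as well as T cells (chromosome 11, 46454935 to 46481255), and had 139 and 155 scaled counts in MYC-PyMT and 255 and 205 in Control-PyMT. The groups were apart, at 147 ± 11.4 in MYC-PyMT and 230.0 ± 35.8 in Control-PyMT, but the log2 change of -0.64 did not pass (SE 0.27, limma adjusted p = 0.0812). With upper-quartile scaling it passed (-0.74, adjusted p = 0.0482), in a range of 0.0482 to 0.298 over 15 alternatives. Tigit, a receptor for PVR and nectins (chromosome 16, 43648867 to 43664146), had 2 and 0 reads in MYC-PyMT and 6 and 14 in Control-PyMT, or 8.47-fold fewer in MYC-PyMT once corrected for depth (exact 95% counting interval 2.06 to 74.8). Ctla4, the inhibitory receptor for CD80 and CD86 (chromosome 1, 60887000 to 60915832), was the gene with overlapping groups, with 5 and 17 reads in MYC-PyMT and 7 and 0 in Control-PyMT. Corrected for depth that is 3.71-fold more reads in MYC-PyMT (exact 95% counting interval 1.53 to 10.3), of which MYC-PyMT replicate 2 gave most. Fitted with no level filter, limma gave Tigit a log2 change of -2.41 (adjusted p = 0.0256), Ctla4 one of 1.99 (0.124) and Pdcd1lg2 one of -1.36 (0.171). Counting intervals cover counting error only.

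**Figure D2:**
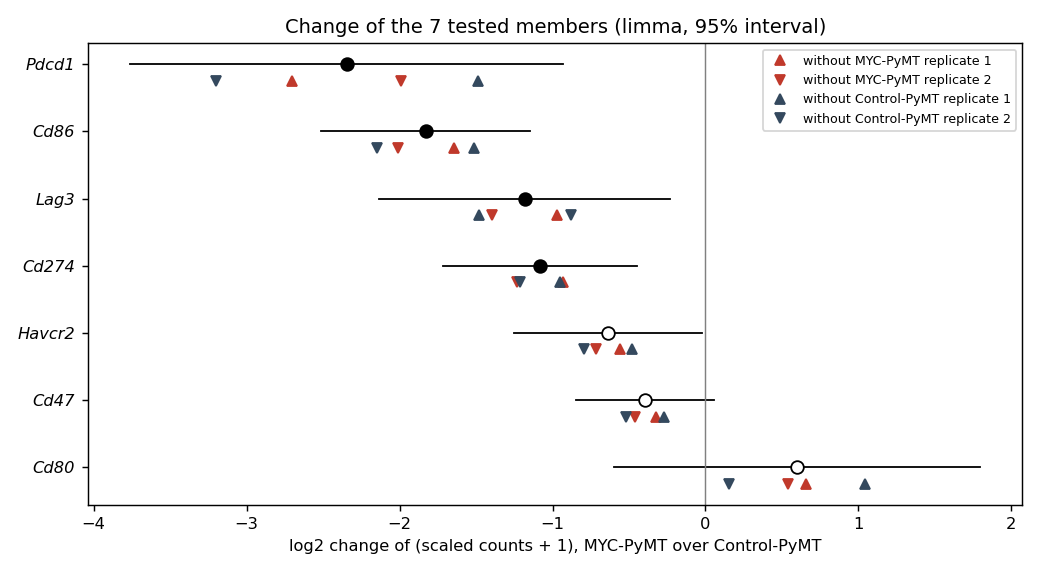
The log2 change of scaled counts plus 1 (x axis, MYC-PyMT over Control-PyMT) of the 7 tested genes with its 95% limma interval, and the change with each library left out. The change of Cd80 lies right of 0 and those of the other 6 lie left of it, also with any 1 library left out.

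Per kilobase of annotated transcript, Cd47 had the highest level in both groups, 141 ± 9.50 scaled counts per kb in MYC-PyMT and 186 ± 22.9 in Control-PyMT. In MYC-PyMT, Havcr2 followed at 54.0 ± 4.18, then Cd274 at 30.7 ± 4.58 and Cd86 at 29.6 ± 5.29, which overlapped each other. In Control-PyMT, Cd86 followed Cd47 at 108 ± 32.9 and overlapped Havcr2 at 84.5 ± 13.2, and Cd274 came next at 65.3 ± 8.44. Cd86 thus ranked 4 in MYC-PyMT and 2 in Control-PyMT. Lag3 ranked 5 in both, at 9.03 ± 1.97 per kb in MYC-PyMT and 21.3 ± 6.31 in Control-PyMT, and overlapped the gene ranked below it in each group, Ctla4 in MYC-PyMT and Pdcd1 in Control-PyMT. The remaining 5 means ran from 0.513 for Pdcd1lg2 to 5.09 for Ctla4 in MYC-PyMT, and from 1.40 for Ctla4 to 16.6 for Pdcd1 in Control-PyMT.

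In bulk tumour, fewer cells of a type and less RNA per cell cannot be told apart, so markers of the cells that carry these genes are given beside them. Ptprc, the pan-leukocyte phosphatase CD45, fell to 538 and 656 scaled counts in MYC-PyMT, against 1334 and 1209.5 in Control-PyMT (log2 change -1.09, SE 0.21, limma adjusted p = 0.00203). Of 10 T cell markers 8 fell and Cd4 rose, but all 8 reached the level filter through Control-PyMT alone, so that their direction was partly set by the filter. Cd8a, the coreceptor of cytotoxic T cells, fell to 4.03 and 4.4 in MYC-PyMT, against 92.6 and 78.1 in Control-PyMT. Cd3e, a chain of the T cell receptor complex, fell to 3.02 and 1.10 in MYC-PyMT, against 19.6 and 22.1 in Control-PyMT. The T cell list summed to 186 and 200.01 in MYC-PyMT and 409 and 360.1 in Control-PyMT, with 0 of its genes unread in both MYC-PyMT libraries, and its part in the changes of Pdcd1 and Lag3 was not tested. Of 6 NK cell markers 3 were tested and fell, 2 of them below the filter in both MYC-PyMT libraries, and the whole list summed to 27.2 and 18.7 in MYC-PyMT and 193 and 229 in Control-PyMT.

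The markers of antigen-presenting cells were mixed. Of 8 tested dendritic cell markers 3 fell, 0 rose and 5 did not pass (median -0.85). Of the 3 that fell, 1 reached the level filter through Control-PyMT alone. The whole dendritic cell list summed to 330.1 and 376 in MYC-PyMT and 974 and 1007 in Control-PyMT. Itgax, the integrin CD11c, fell to 149.9 and 175 in MYC-PyMT, against 716 and 674 in Control-PyMT (log2 change -2.09, limma adjusted p = 0.000117). Itgax was the largest part of the dendritic cell sum in each library, so that sum mostly follows this gene in Control-PyMT. Of 9 macrophage markers 3 fell, 1 rose and 5 did not pass (median -0.33), and their sums overlapped, at 16262 and 19109.5 in MYC-PyMT and 15992 and 18347 in Control-PyMT. Cd68, a lysosomal glycoprotein of macrophages, rose to 2051 and 2198 in MYC-PyMT, against 796 and 837 in Control-PyMT. Mertk fell to 172 and 196 in MYC-PyMT, against 338 and 430 in Control-PyMT, a call lost without Control-PyMT replicate 2. Csf1r fell to 904 and 758 in MYC-PyMT, against 1075 and 1536.5 in Control-PyMT. Its call was lost in several alternatives, such as no level filter (limma adjusted p = 0.0516). Adgre1 had 896 and 835 in MYC-PyMT and 1343 and 1133 in Control-PyMT and did not pass (limma adjusted p = 0.0580). It did pass with TMM scaling (limma adjusted p = 0.0408), upper-quartile scaling (0.0261) or the length trend removed (0.0440), and in edgeR (0.0383). Of 4 tested B cell markers 1 fell, and it reached the filter through Control-PyMT alone. The whole B cell list summed to 72.5 and 37.4 in MYC-PyMT and 84.2 and 123 in Control-PyMT. The part of these cells in the changes of Cd86 and Cd274 was not tested. Of 7 tested neutrophil markers 4 rose and 0 fell, 3 of the 4 having reached the filter through MYC-PyMT alone, with overlapping sums of 2773 and 3980.4 in MYC-PyMT and 3164 and 1035 in Control-PyMT. S100a8 had 1564 and 2524 in MYC-PyMT and 2338 and 639 in Control-PyMT, which overlapped, and did not pass (limma adjusted p = 0.260). S100a9 rose to 886 and 1169 in MYC-PyMT, against 564 and 205 in Control-PyMT (log2 change 1.58, limma adjusted p = 0.00925). Its call was lost with no variance trend (limma adjusted p = 0.0536) or the length trend removed (0.0782), and its change was 0.85 without Control-PyMT replicate 2. As for the tissue, Epcam, an epithelial adhesion molecule, had 19648 and 19804 in MYC-PyMT and 26099 and 23374 in Control-PyMT, and the 4 tested keratinocyte markers fell, 3 of them tested through Control-PyMT alone, with sums of 114 and 146 in MYC-PyMT and 2308 and 1132 in Control-PyMT and Krt25 at 0 reads in both MYC-PyMT libraries. Of 9 mammary epithelial markers 3 fell and 1 rose, of 5 fibroblast markers 2 fell and 1 rose, and of 4 endothelial markers 0 fell and 1 rose, where 24.6% of all tested genes fell and 23.3% rose.

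Set against these markers, the genes did not all keep their direction. The proportions are given as a description and were not tested. As a percent of the summed T cell markers, Pdcd1 was at 3.24% and 1.65% in MYC-PyMT and 12.1% and 4.01% in Control-PyMT. As a percent of Cd3d, Cd3e and Cd3g together it was at 66.7% and 50% in MYC-PyMT and 39.6% and 13.9% in Control-PyMT. The direction of Pdcd1 therefore turned with the markers chosen, and Cd4 was the largest part of the T cell list in MYC-PyMT. Lag3 was at 8.65% and 11% in MYC-PyMT and 8.70% and 15.1% in Control-PyMT of the T cell list, which overlapped. Against the 3 Cd3 genes it was higher in MYC-PyMT, at 178% and 333% in MYC-PyMT and 28.4% and 52.5% in Control-PyMT. Those 3 genes summed to 9.06 and 6.59 in MYC-PyMT and 125 and 104 in Control-PyMT, so these proportions rest on few reads in MYC-PyMT.

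Cd274 was at 18.5% and 18.8% in MYC-PyMT and 19.4% and 17.8% in Control-PyMT of the Ptprc value, and the groups overlapped. Cd86 was lower in that proportion too, at 17.6% and 18.6% in MYC-PyMT and 35.9% and 25.5% in Control-PyMT. Havcr2 was higher, at 25.8% and 23.6% in MYC-PyMT and 19.1% and 16.9% in Control-PyMT, and so was Cd47, which is not restricted to leukocytes, at 157% and 142% in MYC-PyMT and 95.3% and 88.3% in Control-PyMT. Against the sum of Ptprc, Coro1a and Laptm5, of which Ptprc alone passed the test, Cd274 was lower, at 5.01% and 5.59% in MYC-PyMT and 9.74% and 6.76% in Control-PyMT, as was Cd86, at 4.76% and 5.54% in MYC-PyMT and 18.1% and 9.70% in Control-PyMT. Havcr2 and Cd47 overlapped between groups against that sum. Cd80 was higher against it, at 0.557% and 0.549% in MYC-PyMT and 0.388% and 0.160% in Control-PyMT.

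**Figure D3:**
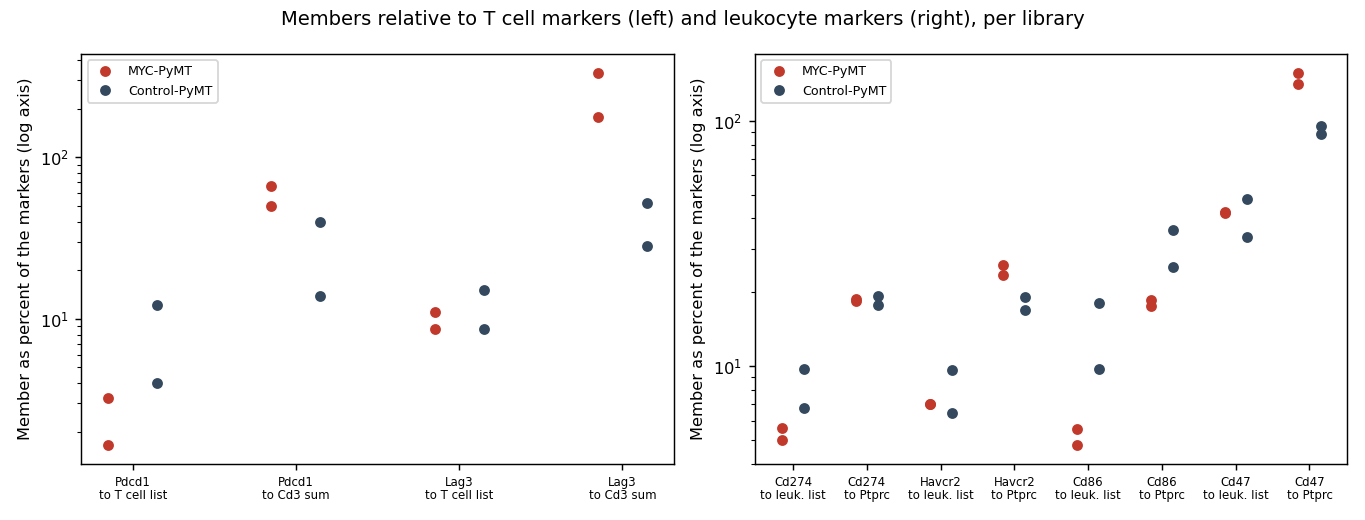
Genes as a percent of marker genes in each library (log y axis), MYC-PyMT left of Control-PyMT, with Pdcd1 and Lag3 set against the T cell list and the 3 Cd3 genes, and Cd274, Havcr2, Cd86 and Cd47 against the leukocyte list and Ptprc. Pdcd1 is lower in MYC-PyMT against the list and higher against the Cd3 genes.

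Other genes of the same routes were followed in 7 lists. Of 58 tested genes 28 fell, 4 rose and 26 did not pass, with a median log2 change of -0.51. Over all tested genes 24.6% fell, 23.3% rose and the median was -0.018, and the counts of the single lists, which are small, are to be read against these shares. Tnfrsf14, Cd27, Cd5 and Cd96 were tested through Control-PyMT alone. In the CD28 and B7 family 3 of 7 tested genes fell and 1 rose (median -0.44). Vtcn1, the inhibitory ligand B7-H4, fell to 282 and 302 scaled counts in MYC-PyMT, against 2559.6 and 2048 in Control-PyMT (log2 change -2.97, SE 0.21, limma adjusted p = 1.16e-05). Vsir, the checkpoint VISTA, fell to 579 and 668 in MYC-PyMT, against 1421 and 1579.8 in Control-PyMT. Btla, an inhibitory receptor of lymphocytes and dendritic cells, rose to 98.6 and 105 in MYC-PyMT, against 44.0 and 28.9 in Control-PyMT, while Tnfrsf14, which encodes its ligand HVEM, fell to 3.02 and 7.69 in MYC-PyMT, against 31.8 and 45.9 in Control-PyMT. Both calls were lost without Control-PyMT replicate 2 (Btla 1.2, adjusted p = 0.0650, and Tnfrsf14 -2.47, adjusted p = 0.0594). Cd28, the activating receptor for CD80 and CD86, whose gene lies 114 kb from Ctla4, had 24.2 and 23.1 in MYC-PyMT and 17.8 and 13.6 in Control-PyMT and did not pass (limma adjusted p = 0.302). Icos, a costimulatory receptor on the other side of Ctla4, had 2 and 6 reads in MYC-PyMT and 17 and 10 in Control-PyMT and was not tested.

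Of 9 tested partners of TIM-3, LAG-3 and TIGIT, 4 fell, 2 rose and 3 did not pass (median -0.16). Lgals9, which encodes the TIM-3 ligand galectin-9, fell to 984 and 1259 scaled counts in MYC-PyMT, against 5082 and 4629 in Control-PyMT (log2 change -2.12, SE 0.20, limma adjusted p = 4.24e-05). Hmgb1, a chromatin protein that TIM-3 can bind when released, rose to 9668 and 10919 in MYC-PyMT, against 5930.1 and 4074 in Control-PyMT. Fgl1, a LAG-3 ligand best known from liver, rose to 72.5 and 102 in MYC-PyMT, against 47.7 and 12.7 in Control-PyMT (log2 change 1.75), and that call was lost without Control-PyMT replicate 2 (0.84, adjusted p = 0.178), without the variance trend (1.75, adjusted p = 0.0685) and in edgeR (1.52, adjusted p = 0.0526). The ligands of TIGIT differed in whether they passed. Pvr (CD155) had 733 and 976 in MYC-PyMT and 694 and 503 in Control-PyMT and did not pass (log2 change 0.52, limma adjusted p = 0.109). Nectin2 fell to 781 and 755 in MYC-PyMT, against 1013 and 1589 in Control-PyMT (log2 change -0.72, adjusted p = 0.0322), and its call was lost without MYC-PyMT replicate 1 (-0.75, adjusted p = 0.0630), MYC-PyMT replicate 2 (-0.70, adjusted p = 0.0911) or Control-PyMT replicate 2 (-0.40, adjusted p = 0.146) and without the variance trend (adjusted p = 0.0900). Nectin3 fell to 109 and 124 in MYC-PyMT, against 774 and 552 in Control-PyMT. Cd96, a receptor of T and NK cells that shares PVR with TIGIT, had 1 and 0 reads in MYC-PyMT and 16 and 21 in Control-PyMT.

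Of 8 genes of the CD47 axis and other phagocytosis signals 4 fell and 0 rose (median -0.66). Sirpa, the macrophage receptor for CD47, had 1851 and 1768 scaled counts in MYC-PyMT and 1975 and 2293 in Control-PyMT, and its change did not pass (log2 change -0.23, SE 0.19, limma adjusted p = 0.324). Thbs1, a matrix protein that also binds CD47, fell to 3872 and 4596 in MYC-PyMT, against 10059 and 7805 in Control-PyMT (log2 change -1.07, adjusted p = 0.00195). Qpct, a glutaminyl cyclase, fell to 48.3 and 54.9 in MYC-PyMT, against 159.9 and 131 in Control-PyMT. Qpctl, of the same list, had 697 and 474 in MYC-PyMT and 501 and 721 in Control-PyMT, which overlapped. It did not pass (limma adjusted p = 0.863). Slamf7, a receptor of phagocytes and lymphocytes, fell to 78.5 and 86.8 in MYC-PyMT, against 204 and 174 in Control-PyMT. Itgam, the integrin CD11b, fell to 143 and 157 in MYC-PyMT, against 271 and 268 in Control-PyMT (log2 change -0.84, limma adjusted p = 0.0229). The Qpct and Slamf7 calls were lost without Control-PyMT replicate 1 (-1.33 and -1.07). The call of Itgam was lost when any 1 of the 4 libraries was left out (-0.91 to -0.77). Among other inhibitory receptors and ligands 4 of 6 tested genes fell and 0 rose (median -1.50). Cd200, a ligand that restrains myeloid cells, fell to 352 and 346 in MYC-PyMT, against 3403 and 3115 in Control-PyMT (log2 change -3.22, limma adjusted p = 4.94e-06). Lair1, a collagen receptor of leukocytes, fell to 235 and 235 in MYC-PyMT, against 709.8 and 533 in Control-PyMT, and Cd244, a receptor of NK cells, fell to 29.2 and 25.3 in MYC-PyMT, against 108 and 90.9 in Control-PyMT. Cd5, a T cell receptor inhibitor, fell to 3.02 and 6.59 in MYC-PyMT, against 17.8 and 14.4 in Control-PyMT, a call lost without MYC-PyMT replicate 1 (adjusted p = 0.158) or either Control-PyMT library (0.123 without replicate 1 and 0.0928 without replicate 2) and in DESeq2 (0.260).

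In the interferon gamma route and regulators of PD-L1, 9 of 12 genes fell and 0 rose (median -0.68). Irf1, a transcription factor that acts on the PD-L1 gene, fell to 790.0 and 824 scaled counts in MYC-PyMT, against 2553 and 2475 in Control-PyMT (log2 change -1.64, SE 0.18, limma adjusted p = 0.000113). Jak2, a kinase of the interferon gamma receptor, fell to 837 and 917 in MYC-PyMT, against 3305 and 2924 in Control-PyMT, and Nlrc5, an activator of MHC class I genes, to 174 and 174 in MYC-PyMT, against 767 and 732 in Control-PyMT. In each of these 3 genes both MYC-PyMT libraries lay below both Control-PyMT libraries. Of 9 tested phosphatases and signalling genes below the receptors 2 fell and 0 rose (median 0.0044). Ptpn6 (SHP-1) fell to 607 and 606 in MYC-PyMT, against 1447 and 1455 in Control-PyMT, and Tox, a factor of exhausted T cells, to 10.1 and 8.79 in MYC-PyMT, against 41.1 and 40.8 in Control-PyMT. Ptpn11 (SHP-2), the phosphatase that PD-1 recruits, had 4495 and 4123 in MYC-PyMT and 5125 and 4471 in Control-PyMT, which overlapped, and did not pass (limma adjusted p = 0.514).

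Of 7 tested costimulatory TNF receptors and ligands 2 fell and 1 rose (median 0.14). Cd27, a costimulatory receptor of T cells, fell to 8.05 and 6.59 scaled counts in MYC-PyMT, against 48.6 and 61.2 in Control-PyMT (log2 change -2.74, SE 0.43, limma adjusted p = 0.000706). Tnfrsf9 (4-1BB) rose to 112 and 176 in MYC-PyMT, against 76.7 and 44.2 in Control-PyMT, and Tnfrsf18 (GITR) fell to 82.5 and 93.4 in MYC-PyMT, against 180.5 and 191 in Control-PyMT. The Tnfrsf9 call was lost without MYC-PyMT replicate 2 (0.93, adjusted p = 0.133), Control-PyMT replicate 1 (1.64, adjusted p = 0.0560) or Control-PyMT replicate 2 (0.86, adjusted p = 0.185). That of Tnfrsf18 was lost without MYC-PyMT replicate 1 (-0.98, adjusted p = 0.0631) and without either Control-PyMT library (-1.11, adjusted p = 0.0638 for replicate 1, and -1.03, adjusted p = 0.0775 for replicate 2).

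**Figure D4:**
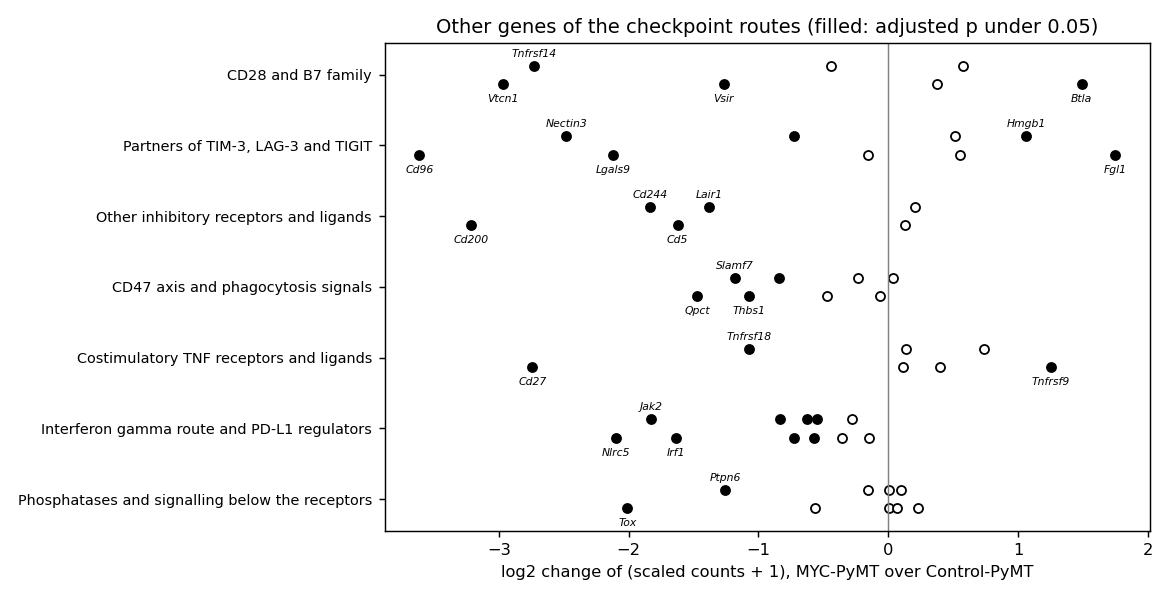
The log2 change of scaled counts plus 1 (x axis, MYC-PyMT over Control-PyMT) of the tested genes in the 7 lists (rows), except 1 that is counted but not shown. Called genes are filled and named where they changed by more than 1, and of all 58 genes 28 fell and 4 rose.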

How the data were processed

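Bulk tumour RNA was sequenced from poly(A)-selected, stranded TruSeq libraries, with 500 ng of RNA and 8 PCR cycles per the labels' protocols, where RIN values of 3.3 to 9.6 are not tied to samples. HISAT2, DESeq2 and mm10 (GRCm38.p5) are named in the submitters' processing notes. No source used here gives the read counter, whether it used strand, or the annotation. The deposited signal is a scaled count per gene, not divided by length. Of its values 100% were whole multiples, within 0.001 reads, of what 1 read is worth (0.849 to 1.10 scaled counts), so reads were recovered, 31783846 to 34190913 a library.

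Limma (3.58.1, R 4.3.3) was fitted to the deposited values as log2(value + 1) with a variance trend, two-sided, which understates changes of low genes. Other settings tried were pseudocounts of 0.5 and 5, a filter of 50 or none, scaling by TMM or upper quartile, a fit lacking the variance trend, a replicate block, each library left out, an adjusted p under 0.10, and edgeR (4.0.16) and DESeq2 (1.42.0) on recovered reads, which called 7925 and 7293 genes. Removal of the transcript length trend, the sum of 3 Cd3 genes and proportions with a library left out were added after the data had been seen. Simulated counts were used to test the procedure. Coordinates, lengths and overlaps come from GENCODE mouse release 21. The genes, the 7 route lists and the 11 marker lists were chosen with earlier results of these data known, and 3 list genes were not analysed here. The text names all 10 genes and Qpctl. Most other names were drawn from the 4 smallest p of each route list, the 2 smallest of each marker list, and set partners and markers. Not every gene so drawn is named, for instance Lck, Tnfrsf4 and several markers. The values of 1 route list gene are not reported here, though it stays in the counts.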

Additional observations from a re-analysis of the deposited data

How the results depend on the processing

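The 7 tested checkpoint genes kept their direction under every alternative run. Lag3 no longer passed with no level filter (log2 change -1.18) or in DESeq2 (-1.23), and Havcr2 passed with upper-quartile scaling (-0.74), which moved the median of all genes by -0.10, or at an adjusted p under 0.10 (-0.64). With a filter of 50, Pdcd1 and Lag3 were no longer tested, which left 2 of the genes called, against 4. With 1 library left out, changes ran over -1.23 to -0.93 for Cd274, -3.20 to -1.49 for Pdcd1 and -1.48 to -0.88 for Lag3, with 1 to 4 of the genes called. Such fits have fewer samples, and the lone library is assumed to vary like the other group. Over all genes they called 5236 to 6480, against 8010 with 4 libraries, and 2573 to 3433 lower, against 4118. They called 2 to 5 higher in the route lists, against 4, and 18 to 24 lower in the marker lists, against 28. With no variance trend 5 marker genes were higher, against 9.

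Against Cd3e alone or the 3 Cd3 genes in place of the T cell list, the log2 difference in proportion was 0.93 or 1.30 for Pdcd1, not -1.59, and 2.29 or 2.66 for Lag3, not -0.23. Cd3e had only 3 and 1 reads in MYC-PyMT. Against Cd3e alone, Pdcd1 was at 200% and 300% in MYC-PyMT and 252% and 65.4% in Control-PyMT, which overlapped. Against Ptprc in place of the leukocyte list it was 0.0069 for Cd274, 0.46 for Havcr2, -0.74 for Cd86 and 0.70 for Cd47, not -0.62, -0.17, -1.37 and 0.079. The cause was not tested. Among other genes, the change turned for Ptpn11 with the length trend removed (0.015, not -0.15). Over left-out libraries changes ran over -0.34 to 0.028 for Krt8 (main fit -0.16) and -0.23 to 1.64 for S100a8 (main fit 0.70).

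With the replicate number as a block, 8039 genes were called, and 4 of the checkpoint genes. Same-numbered libraries deviated with a correlation of -0.089 and no label ties them, so they share only a number.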
